A study of Mus musculus with 2 samples.

Results

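The transcripts of 8 fibroblast growth factor (FGF) genes were followed in cells of the amputated mouse digit: *Fgf1*, *Fgf2*, *Fgf7*, *Fgf8*, *Fgf9*, *Fgf10*, *Fgf13* and *Fgf18*. They were chosen by symbol and are 8 of the 33696 genes, and 8 of the 22 *Fgf* genes, that both single-cell RNA sequencing (scRNA-seq) libraries list. Hindlimb digits of neonatal ICR mice had been cut through the middle phalanx (P2) at postnatal day 3 and given an agarose bead at day 7, coated with FGF8 (500 ng/µl) in one group and with BSA (0.1%) in the other. Tissue distal to the stump was dissociated 24 h later, at day 8, after the surrounding epithelium had been taken off. Each group is 1 library that pools cells of 20 digits from 5 mice of both sexes, so digits that would and would not have responded to FGF8 cannot be told apart in it. With 1 library per group the differences have no replicate check, no test across samples was possible, and treatment, pool of animals and library cannot be told apart.

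Most FGFs are secreted proteins that bind heparan sulfate and activate receptor tyrosine kinases of the FGFR family, and which receptor a ligand reaches depends on the tissue that splices it. In skin and limb, FGF7 and FGF10 are known as mesenchymal factors that act on overlying epithelium, FGF9 and FGF18 as factors that act on cartilage, bone and other mesenchyme, and FGF8 as a factor of the embryonic limb ridge that sustains outgrowth. FGF1 and FGF2 act more broadly and leave the cell without a classical signal peptide. FGF13 does not match the name of a ligand in the usual sense. It is an FGF homologous factor that stays inside the cell, where it binds voltage-gated sodium channels. Its values are given in a paragraph of their own, but counts and medians over the members include it.

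The authors deposited raw UMI counts, in which each captured transcript of a cell is counted once. For every library and cell type, the UMIs of a gene were added up and scaled to 1000000 UMIs (CPM). Ratios are log2 of CPM in the FGF8 library over CPM in the BSA library. Brackets give exact 95% intervals (Poisson for CPM, conditional for ratios, binomial for shares of cells), and none of them includes the spread between animals. Because 3′ counting captures genes unequally, levels are compared between cell types and libraries, not between genes.

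After filtering, the FGF8 library held 6715 cells (median 12251 UMIs) and the BSA library 3252 cells (median 15377 UMIs), and 6 barcodes occurred in both. Of the cells that could be called by sex-linked transcripts, 24.6% (FGF8) and 79.3% (BSA) were female. For this reason several ratios over a whole cell type are also given within each sex, but none over part of a type. Cell types were rebuilt by clustering without any *Fgf* gene among the features and named from marker lists. Fibroblast-like cells are the part of a coarse cluster, named from its markers, that finer clustering split into 5. On its own leading genes only 1 of these 5 clusters would have been named so, with the osteoblast list, counted with the fibroblast list, as its best, and the other 4 carry the name of the coarse cluster. In the one led by *Prg4*, *Il1rl1* and *Mmp3* no marker list stood clearly above the other cells. Fibroblast-like cells were the most numerous, with 2902 FGF8 and 1517 BSA cells. All 12 fibroblast markers were detected in them, but their summed level was 26101 CPM in the FGF8 cells against 46979 CPM in the BSA cells. The chondrocyte-like, Schwann-like and smooth muscle or pericyte-like cells had UMIs of every marker of their lists in both libraries. The doublet caller did not work on these libraries, so results that doublets could touch are also given without the cells of highest doublet score.

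*Fgf8*, the gene of the factor on the bead, was all but undetected as an endogenous transcript. The FGF8 library held 6 *Fgf8* UMIs in 6 cells (0.0581 CPM, 0.0213 to 0.127) and the BSA library 4 UMIs in 4 cells (0.0736 CPM, 0.0200 to 0.188). Fibroblast-like cells held 3 UMIs in each library, and no cell carried more than 1. These levels do not differ beyond counting error (log2 ratio -0.34, -2.42 to 1.93), and no single cell type held enough UMIs for a ratio. Protein delivered on the bead leaves no UMI, so these counts say nothing about it. In keratinocyte-like cells there was no *Fgf8* UMI in 140 FGF8 and 82 BSA cells, which, taken as 3 counts of the total, allows a share of up to 2.14% and 3.66% of cells with a UMI.

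*Fgf7*, which encodes keratinocyte growth factor, was the member with the most UMIs and was concentrated in fibroblast-like cells. Their level was 99.5 CPM (97.1 to 102) in the FGF8 library and 86.8 CPM (83.7 to 90.0) in the BSA library, and 91.1% of all *Fgf7* UMIs of the kept cells lay in them. A UMI was found in 1555 of 2902 FGF8 and 758 of 1517 BSA fibroblast-like cells, and in 16.4% and 13.6% after each cell was thinned to 2000 UMIs. Erythroid-like cells, which should lack the gene, gave 2.29% and 4.82%, and 0.209% and 1.30% when thinned, with median depths of 6970 and 18691 UMIs against 20593 and 21713 in fibroblast-like cells. Neutrophil-like cells stood at 36.7 and 6.43 CPM (FGF8 and BSA; 62 and 4 UMIs), smooth muscle or pericyte-like cells at 15.6 and 12.4 CPM and chondrocyte-like cells at 13.7 and 9.18 CPM. The intervals of the last pair overlap.

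*Fgf10*, another mesenchymal ligand of the epithelial FGFR2 isoform, had nearly the same distribution. Fibroblast-like cells held 91.5% of its UMIs, at 22.7 CPM (21.6 to 23.9) in the FGF8 library and 30.4 CPM (28.6 to 32.3) in the BSA library. In macrophage-like, Schwann-like and neutrophil-like cells of the BSA library no *Fgf10* UMI was found, against 19, 9 and 23 in those of the FGF8 library, where the last stood at 13.6 CPM with 17 of the 23 UMIs in 1 cell. Endothelial-like and chondrocyte-like cells held 5 and 6 UMIs over both libraries. The keratinocyte-like cells, in which FGFR2 is the receptor these ligands are known to reach, held 1 (FGF8) and 9 (BSA) UMIs of *Fgf10*. Their *Fgfr2* UMIs were 463 (152 CPM) in the FGF8 library and 204 (112 CPM) in the BSA library. *Fgfr2* was not particular to them, with 174 and 154 CPM in chondrocyte-like and 105 and 133 CPM in fibroblast-like cells. The other named types stood lower in both libraries. Counts per gene do not tell the isoforms of FGFR2 apart.

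**Figure D1:**
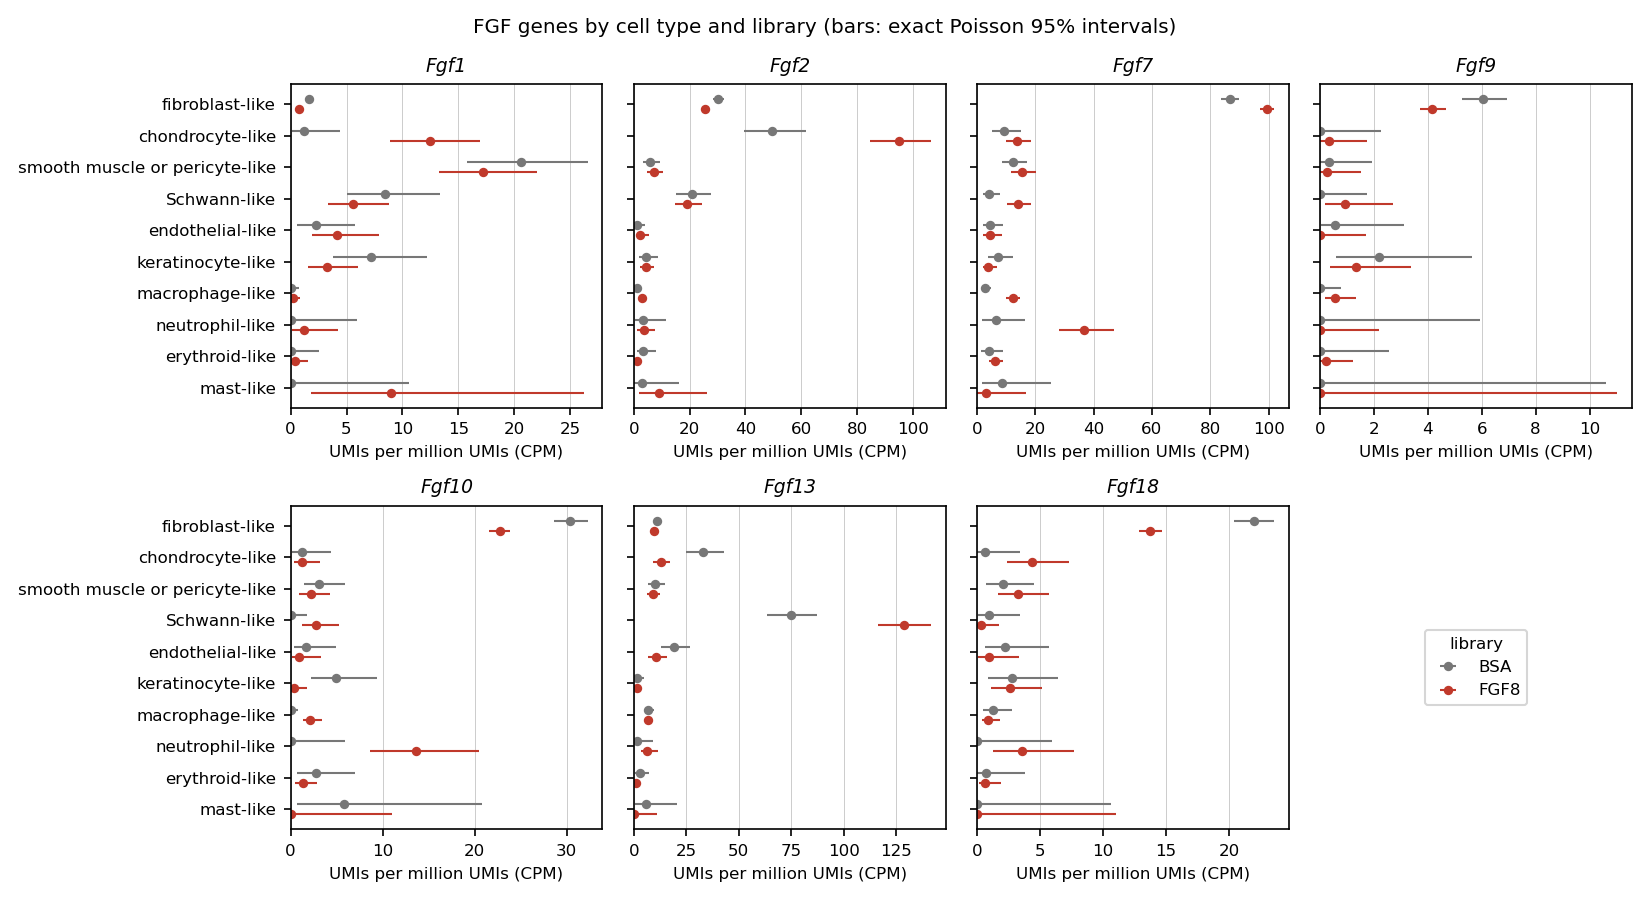
UMIs per 1000000 UMIs (CPM, linear axes that differ between panels) of 7 FGF genes in the 10 named cell types, with 1 point per library (grey BSA, red FGF8) and exact Poisson 95% intervals as bars. *Fgf7*, *Fgf10*, *Fgf9* and *Fgf18* are highest in fibroblast-like cells, *Fgf2* in chondrocyte-like cells, *Fgf1* in smooth muscle or pericyte-like cells and *Fgf13* in Schwann-like cells, in both libraries. In the FGF8 library the *Fgf1* interval of chondrocyte-like cells overlaps that of smooth muscle or pericyte-like cells. Among male-called cells, and with cells thinned to 5000 UMIs, *Fgf10* is highest in neutrophil-like cells instead. Of their 23 *Fgf10* UMIs before thinning, all in the FGF8 library, 17 lie in 1 cell.

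Re-clustering split the fibroblast-like cells into 5 subclusters, each with cells of both libraries, which are called here by their leading genes. *Fgf7* and *Fgf10* were highest in the *Coch* and *Nrg1* subcluster, at 236 and 176 CPM of *Fgf7* (FGF8 and BSA libraries) and 111 and 91.1 CPM of *Fgf10*. The *Lpl* and *Dlk1* subcluster followed, with 200 and 153 CPM of *Fgf7* and 39.8 and 55.1 CPM of *Fgf10*. The *Chodl* and *Sema3a* subcluster held 119 and 106 CPM of *Fgf7* and 41.9 and 35.4 CPM of *Fgf10*. Both genes were low in the *Fmod* and *Comp* subcluster, called by a pair of matrix genes of tendon and cartilage: *Fgf7* stood at 58.5 and 38.2 CPM and *Fgf10* at 6.14 and 4.36 CPM. Of the marker lists, that of osteoblasts stood highest in this subcluster, with 5 of its 8 markers detected. The *Prg4* and *Mmp3* subcluster, led also by *H1f5*, *H2ac8* and *Pbk*, which dividing cells express, held 62.2 and 25.4 CPM of *Fgf7* and 7.22 and 6.39 CPM of *Fgf10*. *Fgf10* thus differed far more between subclusters than between the libraries within any of them. In the finer clustering of all cells *Fgf10* itself stood among the 10 leading genes of the *Coch* and *Nrg1* cluster, although it had not been used to cluster.

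*Fgf7* was higher in the FGF8 library in all 5 subclusters, and each interval lay above 0. The largest difference was in the *Prg4* and *Mmp3* subcluster, with 2059 UMIs in 950 FGF8 cells and 191 UMIs in 237 BSA cells and a log2 ratio of 1.29 (1.08 to 1.51). In the others it was 0.61 (0.42 to 0.81) for *Fmod* and *Comp*, 0.43 (0.28 to 0.58) for *Coch* and *Nrg1*, 0.39 (0.27 to 0.50) for *Lpl* and *Dlk1* and 0.17 (0.05 to 0.29) for *Chodl* and *Sema3a*. Over all fibroblast-like cells the log2 ratio was smaller than in 4 of the 5 subclusters, at 0.20 (0.13 to 0.26). It was 0.024 (-0.03 to 0.08) with types called per cell on every barcode and 0.083 (-0.04 to 0.21) with cells thinned to 5000 UMIs, so that the interval then included 0. The mix of subclusters differed between the libraries: the *Prg4* and *Mmp3* subcluster, low in *Fgf7*, gave 48.6% of fibroblast-like UMIs under FGF8 against 21.7% under BSA. With the same mix in both libraries, a calculation chosen after seeing these values, the log2 ratio of *Fgf7* was 0.53. Within female-called fibroblast-like cells it was 0.43 (0.34 to 0.53), and within male-called cells -0.13 (-0.24 to -0.01), where 274 BSA cells stood against 1964 FGF8 cells. *Fgf7* was thus higher in the FGF8 library among female-called and lower among male-called cells, and the difference between the sexes was not tested. The subcluster and same-mix ratios were not computed within each sex. In every subcluster the female-called share was lower in the FGF8 library, as with 23.2% against 78.2% in *Prg4* and *Mmp3* cells.

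*Fgf10* did not move with *Fgf7* between the libraries. Over all fibroblast-like cells it was lower in the FGF8 library, with 1548 UMIs against 1053 and a log2 ratio of -0.42 (-0.53 to -0.30), and it was also lower within female-called (-0.31, -0.49 to -0.13) and male-called cells (-0.29, -0.53 to -0.05). Within subclusters, however, only *Lpl* and *Dlk1* cells had a ratio below 0 (-0.47, -0.68 to -0.25). The ratio was 0.24 (0.03 to 0.45) in *Chodl* and *Sema3a* cells and 0.29 (0.07 to 0.51) in *Coch* and *Nrg1* cells, and the intervals of the other subclusters (0.18 and 0.49) included 0. With the same mix of subclusters in both libraries the log2 ratio of *Fgf10* was 0.05. That calculation evens out the shares of all 5 subclusters at once, and the part of any 1 of them was not tested.

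**Figure D2:**
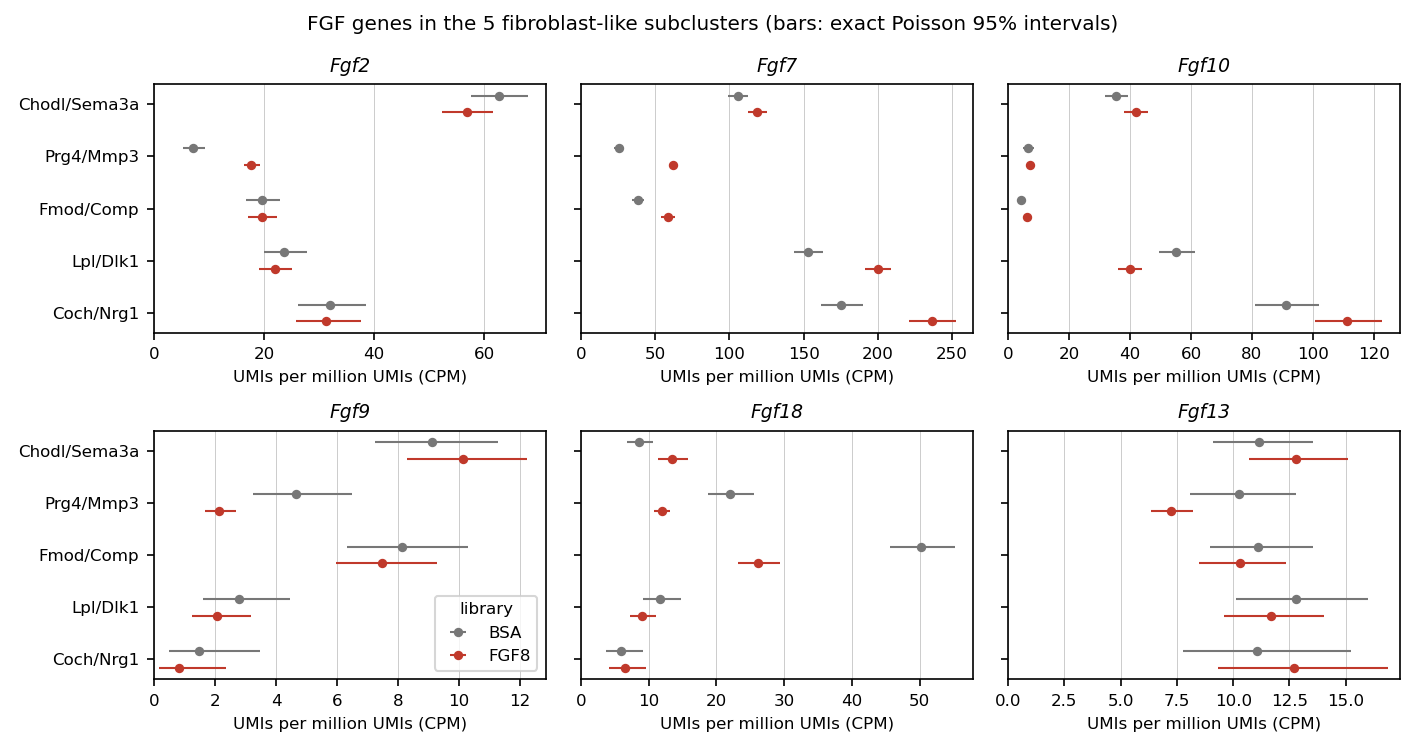
CPM (linear axes that differ between panels) of 6 FGF genes in the 5 fibroblast-like subclusters, named at the left by 2 leading genes, with 1 point per library (grey BSA, red FGF8) and exact Poisson 95% intervals as bars. *Fgf7* lies to the right in the FGF8 library in all 5 subclusters, and *Fgf2* only in the *Prg4* and *Mmp3* subcluster. *Fgf18* lies to the left in the *Fmod* and *Comp* and the *Prg4* and *Mmp3* subclusters. It does so also in the *Lpl* and *Dlk1* subcluster, where the intervals overlap.

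*Fgf2*, basic FGF, was highest in chondrocyte-like cells, at 95.1 CPM (84.8 to 106) in 143 FGF8 cells and 49.5 CPM (39.3 to 61.6) in 66 BSA cells. Fibroblast-like cells held most of its UMIs (79.3%) at 25.5 CPM (24.3 to 26.7) in the FGF8 and 30.3 CPM (28.5 to 32.2) in the BSA library. Schwann-like cells came next among the named types, with 19.2 and 20.7 CPM, and their interval overlapped that of fibroblast-like cells in the FGF8 but not in the BSA library. Among fibroblast-like subclusters *Fgf2* was highest in *Chodl* and *Sema3a* cells (56.9 and 62.7 CPM). The log2 ratio over all fibroblast-like cells was -0.25 (-0.36 to -0.14), but in 4 of the 5 subclusters the interval included 0, and the lowest of these ratios was -0.14. The fifth, *Prg4* and *Mmp3*, was higher in the FGF8 library, with 586 UMIs against 53 and a log2 ratio of 1.33 (0.92 to 1.76). With the same mix in both libraries the ratio of *Fgf2* turned to 0.16, and within each sex (-0.14 and -0.21) the intervals included 0.

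In chondrocyte-like cells *Fgf2* was higher in the FGF8 library, with 306 UMIs in 79 cells against 81 UMIs in 28 cells and a log2 ratio of 0.94 (0.58 to 1.31). The direction was the same in female-called (0.70, 0.22 to 1.19) and in male-called cells (1.57, 0.70 to 2.59, on 11 BSA UMIs), and without the cells of highest doublet score the ratio was 1.01 (0.65 to 1.38). The summed level of the 11 chondrocyte markers was 51060 CPM in the FGF8 and 67816 CPM in the BSA chondrocyte-like cells, and its part in this difference was not tested.

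*Fgf1*, acidic FGF, had only 27.9% of its UMIs in fibroblast-like cells. It was highest in smooth muscle or pericyte-like cells, with 17.2 CPM (13.2 to 22.0; 63 UMIs) in the FGF8 and 20.6 CPM (15.7 to 26.5; 60 UMIs) in the BSA library, which do not differ beyond counting error (log2 ratio -0.26, -0.79 to 0.27). A UMI was seen in 16.5% and 19.3% of these cells, against 1.38% and 2.24% of fibroblast-like cells. Schwann-like cells stood at 5.57 and 8.47 CPM and keratinocyte-like cells at 3.29 and 7.14 CPM, but single cells weighed heavily there: in the BSA library 11 of 18 Schwann-like UMIs and 10 of 13 keratinocyte-like UMIs came from 1 cell each. In chondrocyte-like cells the libraries stood far apart, with 40 UMIs in 23 FGF8 cells (12.4 CPM) and 2 UMIs in 1 BSA cell (1.22 CPM), a log2 ratio of 3.35 (1.40 to 6.44). Of the 40 UMIs, 12 lay in 1 cell. The interval of these FGF8 chondrocyte-like cells overlapped that of smooth muscle or pericyte-like cells in the same library. Male-called chondrocyte-like cells held 10 UMIs against 0 and female-called cells 27 against 2, so the BSA values rest on very few UMIs.

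In fibroblast-like cells *Fgf1* was lower in the FGF8 library, with 50 UMIs (0.734 CPM) against 57 UMIs (1.64 CPM) and a log2 ratio of -1.16 (-1.74 to -0.59). Most of these UMIs came from *Lpl* and *Dlk1* cells (2.68 and 5.25 CPM). The ratio was -1.07 in female-called cells and -0.44 in male-called cells, where it rests on 7 BSA UMIs and the interval included 0 (-1.62 to 0.98). When the fibroblast-like cluster of the coarser partition was left whole, it was -0.85 (-1.31 to -0.38). The size did not hold under other settings: it was -0.39 (-1.13 to 0.37) with a stricter cell filter, -0.36 with cells weighted equally, -0.24 (-1.53 to 1.13) with cells thinned to 5000 UMIs and 0.059 (-1.62 to 1.96) at 2000 UMIs.

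*Fgf9*, a ligand of mesenchymal FGF receptors, was nearly confined to fibroblast-like cells among the named types (91.7% of its UMIs), at 4.17 CPM (3.70 to 4.68) in the FGF8 library and 6.06 CPM (5.27 to 6.93) in the BSA library. Its level was highest in the *Chodl* and *Sema3a* subcluster (10.1 and 9.10 CPM) and the *Fmod* and *Comp* subcluster (7.49 and 8.14 CPM), whose intervals overlap. It was lower in the FGF8 library over all fibroblast-like cells (log2 ratio -0.54, -0.80 to -0.28), in female-called cells (-0.67) and in male-called cells (-0.83), with each interval below 0. Only in the *Prg4* and *Mmp3* subcluster did the interval lie below 0 (-1.12, -1.72 to -0.49), on 71 and 35 UMIs.

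*Fgf18*, which is known for its role in cartilage and bone growth, was likewise a transcript of fibroblast-like cells (93.4% of its UMIs), at 13.8 CPM (12.9 to 14.7) in the FGF8 and 22.0 CPM (20.4 to 23.6) in the BSA library. In contrast to *Fgf7* and *Fgf10* it was highest in the *Fmod* and *Comp* subcluster, at 26.2 and 50.2 CPM, and lowest in *Coch* and *Nrg1* cells, at 6.48 and 5.97 CPM. It was lower in the FGF8 library over all fibroblast-like cells, with 937 UMIs against 761 and a log2 ratio of -0.67 (-0.81 to -0.53), and also within female-called (-0.82, -1.06 to -0.57) and male-called cells (-0.35, -0.63 to -0.06). The same mix of subclusters left the ratio at -0.65. The difference was largest in the *Fmod* and *Comp* (-0.94, -1.16 to -0.72) and *Prg4* and *Mmp3* subclusters (-0.88, -1.15 to -0.61), while in *Chodl* and *Sema3a* cells *Fgf18* was higher in the FGF8 library, at 13.4 against 8.56 CPM (0.65, 0.24 to 1.07). Chondrocyte-like cells held 14 UMIs in the FGF8 and 1 in the BSA library, too few to fix a size (2.83, 0.11 to 8.23), and without the cells of highest doublet score the interval reached 0.

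*Fgf13*, the intracellular member, was highest in Schwann-like cells, at 128 CPM (116 to 141) in 241 FGF8 cells and 74.8 CPM (63.6 to 87.4) in 124 BSA cells. A UMI was found in 36.9% and 29.0% of these cells. The unnamed cluster led by *Ptprcap*, *Klrb1b*, *Skap1* and *Klrk1* came next, with 49.0 and 37.7 CPM, and chondrocyte-like cells followed among the named types, with 12.7 and 33.0 CPM. In fibroblast-like cells the level was 9.52 and 11.2 CPM. The 5 subclusters lay between 10.2 and 12.8 CPM in the BSA library, with intervals that overlap. In the FGF8 library the *Prg4* and *Mmp3* subcluster stood lowest, at 7.25 CPM (6.36 to 8.23), below the *Chodl* and *Sema3a* subcluster at 12.8 CPM (10.7 to 15.1). In Schwann-like cells it was higher in the FGF8 library (log2 ratio 0.78, 0.51 to 1.05), where 78 of 415 UMIs came from 1 cell. *Fgf13* is X-linked, and the ratio was 0.83 (0.43 to 1.23) in female-called and 0.01 (-0.51 to 0.58) in male-called Schwann-like cells, with intervals that overlap. In chondrocyte-like cells it was lower in the FGF8 library (41 against 54 UMIs, log2 ratio -1.37), but 22 of the 54 BSA UMIs came from 1 cell, and the male-called cells held 31 UMIs against 1, in the other direction.

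**Figure D3:**
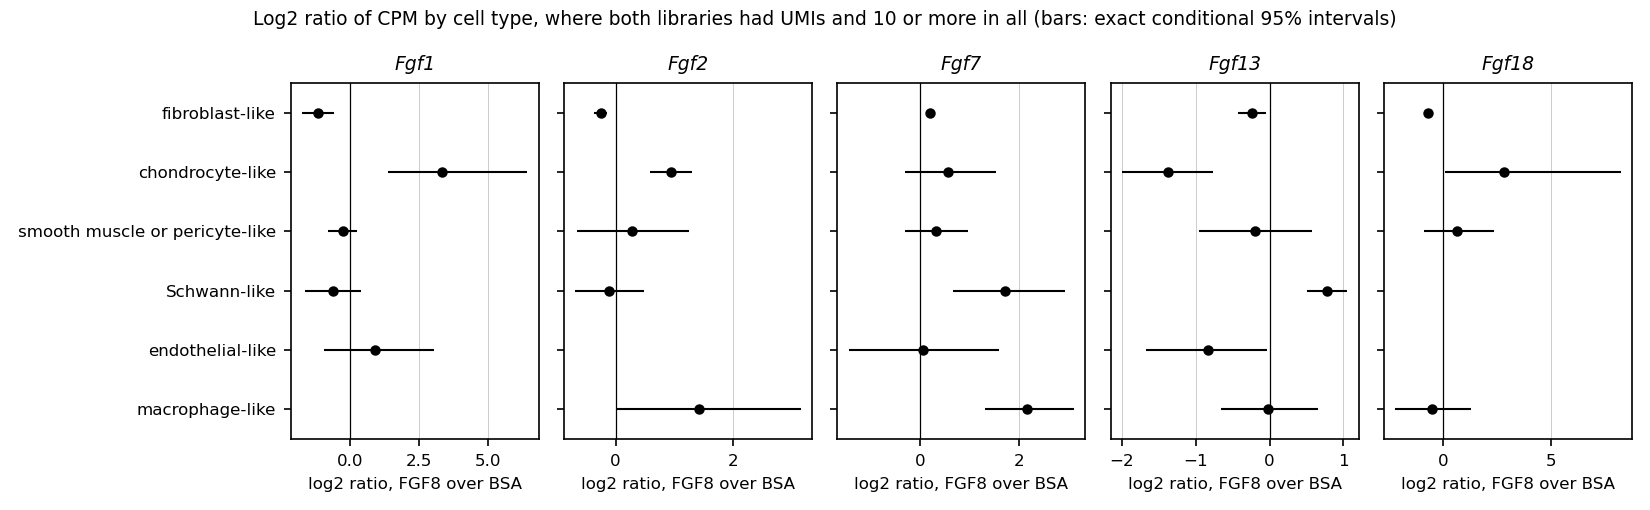
Log2 ratio of CPM, FGF8 over BSA, for 5 FGF genes in 6 cell types, as points with exact conditional 95% intervals (horizontal axes differ between panels; types without a UMI in 1 library or with fewer than 10 UMIs in all are left out). *Fgf1*, *Fgf2* and *Fgf18* lie below 0 in fibroblast-like and above 0 in chondrocyte-like cells, and *Fgf13* lies below 0 in both of these and above 0 in Schwann-like cells.

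Over the whole set, 1 of the 7 members with at least 10 UMIs in fibroblast-like cells, *Fgf7*, was higher in the FGF8 library and 6 were lower, beside 43.4% of 19905 genes that were higher. The median log2 ratio of the 7, which include the intracellular *Fgf13*, was -0.42, against -0.08 over all genes tested. Only *Fgf1* was past 2-fold, in a comparison where 11.7% of genes were past 2-fold in either direction. Within female-called cells again only *Fgf7* was higher (42.3% of genes were), and within male-called cells none was (44.3% of genes). Within subclusters the count was not one-sided. It was 5 of 7 members higher in *Chodl* and *Sema3a* cells (51.3% of genes), 3 of 6 in *Prg4* and *Mmp3* cells (44.3%), 2 of 7 in *Fmod* and *Comp* cells (52.3%), 1 of 7 in *Lpl* and *Dlk1* cells (50.4%) and 4 of 5 in *Coch* and *Nrg1* cells (51.8%). With the same mix of subclusters in both libraries, 3 of 7 members were higher, the median log2 ratio was -0.15 and none was past 2-fold. In chondrocyte-like cells 4 of the 5 members with at least 10 UMIs were higher in the FGF8 library (46.9% of genes). Of these, *Fgf1* and *Fgf18* reached 10 UMIs only through the FGF8 library, with 40 and 14 UMIs there. The count is therefore not read as a result about the members.

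**Figure D4:**
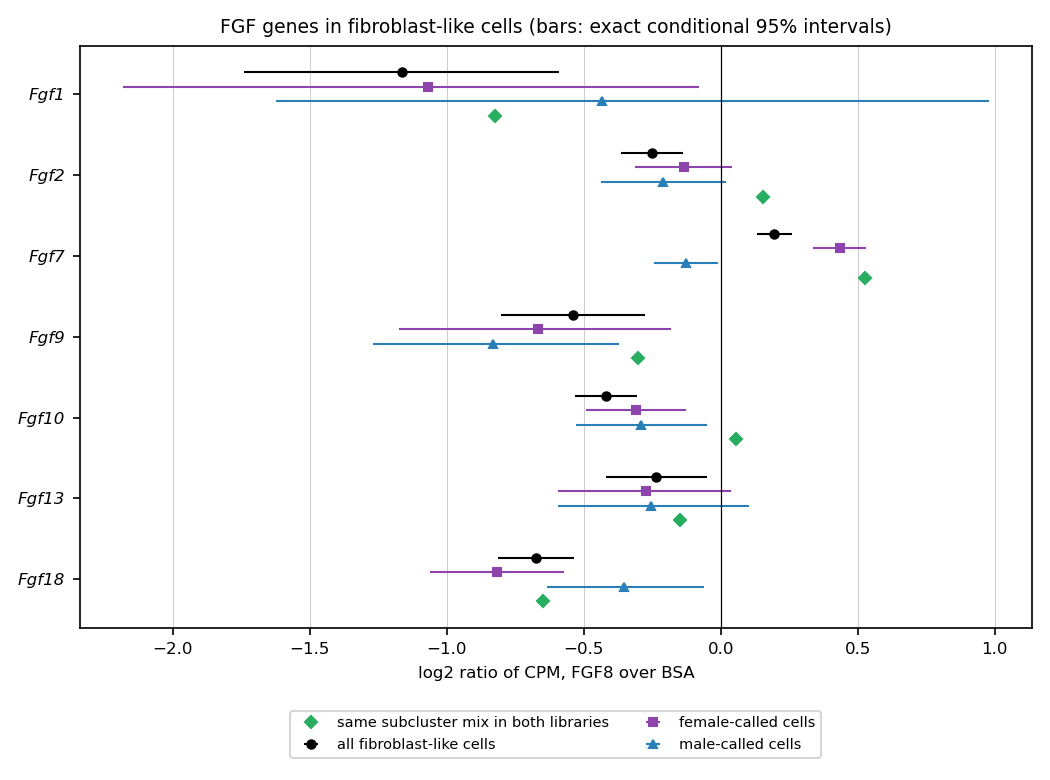
Log2 ratio of CPM, FGF8 over BSA, of 7 FGF genes in fibroblast-like cells: black circles for all cells, purple squares for female-called and blue triangles for male-called cells, each with its exact conditional 95% interval, and green diamonds, without interval, for the same subcluster mix in both libraries. *Fgf1*, *Fgf9*, *Fgf13* and *Fgf18* stay below 0 in all 4 values. The intervals of *Fgf1* in male-called cells and of *Fgf13* within each sex include 0. *Fgf2* and *Fgf10* cross 0 with the same mix, and *Fgf7* does so in male-called cells.

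The UMIs of a member were unevenly spread over fibroblast-like cells, and at these numbers a cell without a UMI is not shown to lack the transcript. The 290 of 2902 FGF8 cells with the most *Fgf7* UMIs held 53.4% of them, and the 152 of 1517 BSA cells ranked highest held 52.8%. For *Fgf10* these shares were 73.1% and 65.9%, and for *Fgf18* 75.9% and 77.3%. Such a share rises when a gene has fewer UMIs. It was 100% in both libraries for *Fgf9*, whose UMIs lay in only 168 FGF8 and 109 BSA cells. The shares are therefore not compared between genes or libraries. Single cells reached 82 UMIs of *Fgf7*, 28 of *Fgf18* and 21 of *Fgf10*. When each cell was thinned to 5000 UMIs, 50.3% of FGF8 and 46.6% of BSA fibroblast-like cells carried no UMI of any member, 35.5% and 38.6% carried UMIs of 1 member, and 11.7% and 12.5% of 2.

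UMIs of fibroblast-rich members also appeared in blood cells and Schwann-like cells. Leaving out the cells of highest doublet score can only lower a UMI count, so levels and ratios are given beside the counts. Macrophage-like cells held 108 *Fgf7* UMIs in the FGF8 library (12.3 CPM) and 13 in the BSA library (2.76 CPM). Without the cells of highest doublet score these were 32 and 7 UMIs (4.14 and 1.59 CPM), with a log2 ratio of 1.38 (0.18 to 2.81). In Schwann-like cells the log2 ratio of *Fgf7* was 1.72 (0.67 to 2.94) and became 0.22 (-1.24 to 1.81) without those cells. Neutrophil-like cells of the FGF8 library, with a median of only 2410 UMIs, held 62 *Fgf7* and 23 *Fgf10* UMIs, and 17 of the 23 came from 1 cell. Without the cells of highest doublet score 29 *Fgf7* and 19 *Fgf10* UMIs remained, at 22.0 and 14.4 CPM. The BSA library then held 2 and 0 UMIs, and the log2 ratio of *Fgf7* was 2.61 (0.63 to 5.73). The summed level of the 12 fibroblast markers in neutrophil-like cells was 6335 CPM in the FGF8 and 4543 CPM in the BSA library.

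An unnamed cluster with few UMIs per cell (medians of 2563 and 3327), led by *Lars2*, *Camk1d* and *Gphn*, also carried fibroblast-type members, with 165 and 261 CPM of *Fgf7* and 41.2 and 73.0 CPM of *Fgf10*. The 12 fibroblast markers summed to 27750 and 45282 CPM in it. These 365 FGF8 and 134 BSA cells are not counted among the fibroblast-like cells.

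Over 34 points, 24 of them the other cell types and 10 the fibroblast-like subclusters of both libraries, the pattern of *Fgf10* was most like that of *Fgf7* among all genes with at least 100 UMIs (Pearson's r of log2(CPM + 1) 0.94). These correlations describe the points, which share libraries and cell numbers, and carry no test. The genes most like *Fgf7* were *Prr16* (0.95), the receptor gene *Pdgfra* (0.95) and *Svep1* (0.94). *Fgf18* was most like *Lhx9* (0.92), *P4ha3* (0.90) and *Loxl1* (0.89), an enzyme of elastin crosslinking, and among the members most like *Fgf9* (0.82). *Fgf9* was most like *Gria1* (0.87), *C130026L21Rik* (0.84) and *Dbx2* (0.83). *Fgf2* was most like *Col16a1* (0.94), *Golm2* (0.91) and *Has2os* (0.88). After *Fgf7*, *Fgf10* was most like the calcium channel gene *Cacna1g* (0.91) and *9330154J02Rik* (0.90). *Fgf1* was most like *Nmnat2*, *Itga1* and *Itga7* (0.75 each), of which the last encode integrin subunits of muscle and mesenchyme. *Fgf13* was most like *Lpcat1* (0.81), *Ccdc30* (0.78) and *Sdc3* (0.78). *Fgf1* and *Fgf13* had no r above 0.36 with another member.

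The other genes of the pathway were read in fibroblast-like cells from 6 lists, 57 of whose 64 genes had at least 10 UMIs: 28 were higher in the FGF8 library (43.4% of all genes were) and 29 lower, with a median log2 ratio of -0.03, and 6 were past 2-fold (11.7% of all genes were). Of the 14 other *Fgf* genes, 9 had enough UMIs and 3 were higher. *Fgf12*, an intracellular factor like *Fgf13*, was lower in the FGF8 library, at 17.6 against 42.1 CPM (-1.26, -1.37 to -1.15). *Fgf14*, *Fgf16* and *Fgf11* stood at -0.38, -0.85 and -0.44. *Fgf23*, named after its value was seen as the other gene past 2-fold, had 123 UMIs against 15 (2.06, 1.28 to 2.94). Of the 7 receptors and co-receptors, 5 had enough UMIs and 2 were higher: *Fgfr1* was at 214 and 209 CPM (0.04), *Fgfr2* at 105 and 133 CPM (-0.35), *Fgfrl1* at -0.26 and *Fgfr4* at 6.82 and 18.7 CPM (-1.45).

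Of the 11 genes of FGF-binding proteins and heparan sulfate carriers, 3 were higher. *Fgfbp1*, past 2-fold and named after its value was seen, had 21 UMIs against 4 (1.42, -0.15 to 3.42). The carriers *Sdc4* (0.80) and *Gpc3* (-0.86) stood at opposite ends of the named ones, with *Sdc2* at -0.26 and *Hspg2* at -0.44. Of the 11 genes that build, sulfate or trim heparan sulfate, 6 were higher, among them *Ext1* (0.23), *Sulf1* (0.21) and *Hs2st1* (0.27), whereas *Sulf2*, which removes sulfate from the chains outside the cell, was at 75.1 against 151 CPM. Of the 15 feedback and target genes of FGF signalling, 11 were higher (43.4% of all genes were), with a median log2 ratio of 0.20 and 1 past 2-fold. Named by their UMIs, *Flrt2* was at 0.20, *Spred1* at -0.05, *Spry1* at -0.46 and *Spred2* at 0.06. The gene past 2-fold, named after its value was seen, was *Etv4* (2.12, 1.88 to 2.36). Also named after their values were seen, *Dusp5* (0.95), *Dusp6* (0.89) and *Dusp4* (0.85) came next, and *Il17rd* was lowest (-0.62). Of the 6 adaptor genes 3 were higher, and *Grb2* (0.15), *Ptpn11* (0.12), *Frs2* (0.00) and *Gab1* (-0.39) had the most UMIs.

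Positions are given for GRCm39, the build of the files, from GENCODE vM39. *Fgf7* lies on chr2:125876578-125934218 (+) inside *Fam227b*, which runs on the opposite strand and had 467 UMIs in the FGF8 and 172 in the BSA library. *Fgf2* lies on chr3:37402473-37464257 (+) and overlaps *Nudt6* (423 and 192 UMIs) and *Fgf2os* (35 and 18), both antisense to it. *Fgf10* lies on chr13:118806327-118928672 (+) across the antisense RNA *Gm16263* (388 and 403 UMIs), and *Fgf1* across the antisense RNA *Gm5820* (95 and 61). On the same strand, the noncoding RNA *Gm43439* overlaps *Fgf2* and *Gm61715* overlaps *Fgf13*, and neither is among the genes counted. Counting with Cell Ranger uses strand, and how far reads of these overlapping genes were mixed was not tested. *Fgf9* lies on chr14:58308004-58350316 (+), *Fgf18* on chr11:33067014-33097828 (-), *Fgf8* on chr19:45725237-45731354 (-) and *Fgf13* on chrX:58106279-58613431 (-).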

How the data were processed

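The authors captured cells with a 3′ droplet kit and deposited UMI counts made with Cell Ranger 9.0.0 on a GRCm39 reference, and the labels' processing notes also name mm10. The files held 124889213 UMIs in 7249 barcodes (FGF8) and 67739460 in 3703 (BSA). Following the study's methods, barcodes with more than 200 and fewer than 7500 genes and under 15% mitochondrial UMIs were kept, normalised and integrated (Seurat 5.3.0, sctransform 0.4.2, R 4.3.3, 30 components). *Fgf* genes were left out of the features.

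At resolution 0.05 the fibroblast cluster also held keratinocyte-like and UMI-poor cells, so types were taken at resolution 0.5. That split, the naming limits, the unsplit alternative and the equal subcluster mix were chosen after the data were seen. Subclusters used resolution 0.2. Their features also left out the genes that the study lists as higher or lower in FGF8-treated fibroblasts, and X- and Y-linked genes. Of 3000 features found for them, 2657 were used. A name needed 3 markers, each in 10% of the cells, with at least 1 marker of its list, and no more of another list, among the cluster's 10 leading genes. Finer clusters without a name and without few UMIs, mostly inside the coarse fibroblast-like cluster, kept its name. Sex was called from sex-linked transcripts. Scrublet (scanpy 1.11.5) called 0 doublets, so the alternative left out the 420 and 110 highest scores.

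Ratios needed 10 UMIs over both libraries and were computed in Python 3.11.15 (scipy 1.17.1). The interval code was first run on simulated independent counts. These leave out the uneven spread of UMIs over cells, so that run does not show that the widths hold for these data. With 1 library per group no test was run. The named genes were the 8 members, up to 4 genes with the most UMIs per pathway list, and the 3 genes most like each member. Pathway genes named after their values were seen are marked so. The members and lists were chosen with earlier results of these data known. Alternatives changed cell filter, types, weighting, depth, sex, doublets and scaling.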

Additional observations from a re-analysis of the deposited data

Results flagged for a closer look

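These are genes whose log2 ratio (FGF8 over BSA) had an interval below 0 in one and above 0 in another of the named cell types with UMIs in both libraries, of the fibroblast-like subclusters, or of the sexes among fibroblast-like cells. Unnamed clusters, and types without a UMI in 1 library, were not compared in this way. The differences between these ratios were not tested.

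*Fgf1* stood at -1.16 in fibroblast-like and 3.35 in chondrocyte-like cells, the latter on 2 BSA UMIs. *Fgf2* stood at -0.25 in fibroblast-like, 0.94 in chondrocyte-like and 1.42 in macrophage-like cells, and in the last 5 UMIs (FGF8) and 1 UMI (BSA) remained without the cells of highest doublet score. *Fgf18* stood at -0.67 in fibroblast-like and 2.83 in chondrocyte-like cells, the latter on 1 BSA UMI. *Fgf13* stood at 0.78 in Schwann-like cells against -0.24 in fibroblast-like, -0.83 in endothelial-like and -1.37 in chondrocyte-like cells. The endothelial-like value rests on 23 FGF8 UMIs, 9 of them in 1 cell, and its interval included 0 without the cells of highest doublet score (-1.64 to 0.017). The interval in fibroblast-like cells included 0 within each sex and after centring on the median gene. The values of *Fgf13* in chondrocyte-like and Schwann-like cells also lean on 1 cell each, with 22 of 54 BSA and 78 of 415 FGF8 UMIs.

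Among fibroblast-like cells, *Fgf7* stood at 0.43 where cells were called female and at -0.13 where they were called male. *Fgf10* stood at 0.24 in the *Chodl* and *Sema3a* and 0.29 in the *Coch* and *Nrg1* subcluster against -0.47 in the *Lpl* and *Dlk1* subcluster. *Fgf18* stood at 0.65 in the *Chodl* and *Sema3a* subcluster against -0.88 in the *Prg4* and *Mmp3* and -0.94 in the *Fmod* and *Comp* subcluster.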

How the results depend on the processing

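No paired analysis was possible because each group is 1 library, and for the same reason no replicate could be left out. The median log2 ratio of the members in fibroblast-like cells, -0.42, stayed below 0 under every alternative run but moved to -0.26 with a stricter cell filter, -0.27 with types called per cell, -0.16 with cells weighted equally, -0.029 and -0.15 with cells thinned to 2000 and 5000 UMIs, -0.29 in male-called cells and -0.15 with the same subcluster mix. The count of members higher in the FGF8 library, 1, became 3 when thinned to 2000 UMIs, 3 with the same mix and 0 in male-called cells. The 1 member past 2-fold became 0 under these settings, with types called per cell on every barcode and with the coarse cluster unsplit, and stayed 1 under the others. The 6 pathway genes past 2-fold became 3 when thinned to 2000 UMIs. Single ratios changed direction for *Fgf1* (0.059) and *Fgf10* (0.043) when thinned to 2000 UMIs, for *Fgf7* (-0.13) in male-called cells, and for *Fgf2* (0.16) and *Fgf10* (0.054) with the same mix. *Fgf9*, *Fgf13* and *Fgf18* kept their direction under every alternative run, but not always an interval clear of 0. It included 0 for *Fgf9* with a stricter cell filter (-0.20, -0.53 to 0.14) and with cells thinned to 5000 (-0.12, -0.69 to 0.46) or 2000 UMIs (-0.36, -1.27 to 0.59), for *Fgf18* when thinned to 2000 UMIs (-0.23, -0.75 to 0.31), and for *Fgf13* with a stricter filter, thinned to 5000 UMIs, centred on the median gene (-0.34 to 0.03) and within each sex. It also included 0 for *Fgf2* and *Fgf10* when thinned to either depth. The cell type with the highest *Fgf10* level became neutrophil-like when cells were thinned to 5000 UMIs and among male-called cells. Of the 23 neutrophil-like *Fgf10* UMIs before thinning, all in the FGF8 library, 17 lay in 1 cell. The causes were not tested. The same-mix calculation differs from the reported ratio in the subcluster weights alone, but it was chosen after the data were seen and has no interval. Intervals cover counting error only, and the spread between animals is unknown.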
